A study of Chlorocebus sabaeus with 4 samples.

Results

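The receptors for luteinising hormone and chorionic gonadotropin (LHCGR), follicle-stimulating hormone (FSHR), prolactin (PRLR), growth hormone (GHR) and oxytocin (OXTR) were followed in the corpus luteum of vervet monkeys (Chlorocebus sabaeus). Every probe set whose platform annotation named 1 of these 5 genes, and no other gene, was taken. This gave 11 probe sets of 41091 with 1 gene symbol, namely 7 for PRLR and 1 for each of the other receptors. The tissue came from 2 adult females, both 16 years old. Monkey 1030 had ad libitum feeding and monkey 1031 calorie restriction, and samples 1 and 2 of each were arrayed. Each diet was thus represented by 1 animal, which was also its own control for weight change, and the order of collection of samples 1 and 2 is not labelled. Every change is therefore given as sample 2 against sample 1, without an order in time. No strain, genotype or drug is labelled.

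These receptors bind the pituitary and placental hormones that control the corpus luteum. LHCGR and FSHR are closely related receptors with a large leucine-rich outer domain, and both act mainly through the stimulatory G protein and cyclic AMP. In primates, progesterone secretion by the corpus luteum depends on LHCGR, whereas FSHR belongs mainly to the granulosa cells of the follicle. PRLR and GHR are class I cytokine receptors that signal through the kinase JAK2 and STAT5, and OXTR couples to Gq, phospholipase C and calcium. In the RefSeq vervet annotation (assembly mChlSab1.0.hap1) all 5 genes are listed under these symbols, and 0 protein-coding genes lie between LHCGR and FSHR.

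The values were log2 signals from 4 arrays, 1 per sample, with medians between 3.96 and 4.00 over all probe sets. Since a single array stood for each sample number, changes within an animal had no replicates and no test, and a change of 2-fold or more (1 on the log2 scale) was used as a rule of size. Sample 2 of the ad libitum animal lay apart from the rest. Between 1840 and 2017 probe sets were 2-fold from it in each of the other samples, against 234 to 698 between any other pair. Of 10 markers of luteal steroidogenic cells, LHCGR not counted, 9 lay above background in each of the other 3 samples and 7 in this one, where CYP19A1 (4.41) and MRAP (4.79) were under the cut described next. NR5A1 was under it in all 4.

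Signal near background was judged from 40 genes of other tissues, such as retina, liver, muscle and skin. Their 72 probe sets had a median log2 signal of 3.61, and the 90th percentile, 5.37, was used as the cut. By their brightest probe set, 35 of the 40 genes were at or under it in all samples. KRT10 (up to 7.89), SFTPB, SFTPC, MBP and TG were not, and their signals raise the cut. LHCGR was the receptor gene above the cut in all 4 samples. FSHR exceeded it in the ad libitum animal's sample 2 alone, and the brightest PRLR probe set (210476_s_at) exceeded it in 3 samples. The other 8 receptor probe sets, those of GHR and OXTR and 6 of the 7 for PRLR, lay at or under it in every sample. At the 75th percentile of the same genes, 4.46, the number near background in all samples was 7, and at the median of all genes' brightest probe sets, 5.26, it was 8. A probe set under the cut can still carry signal, but its level cannot be told from that of genes of other tissues.

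**Figure D1:**
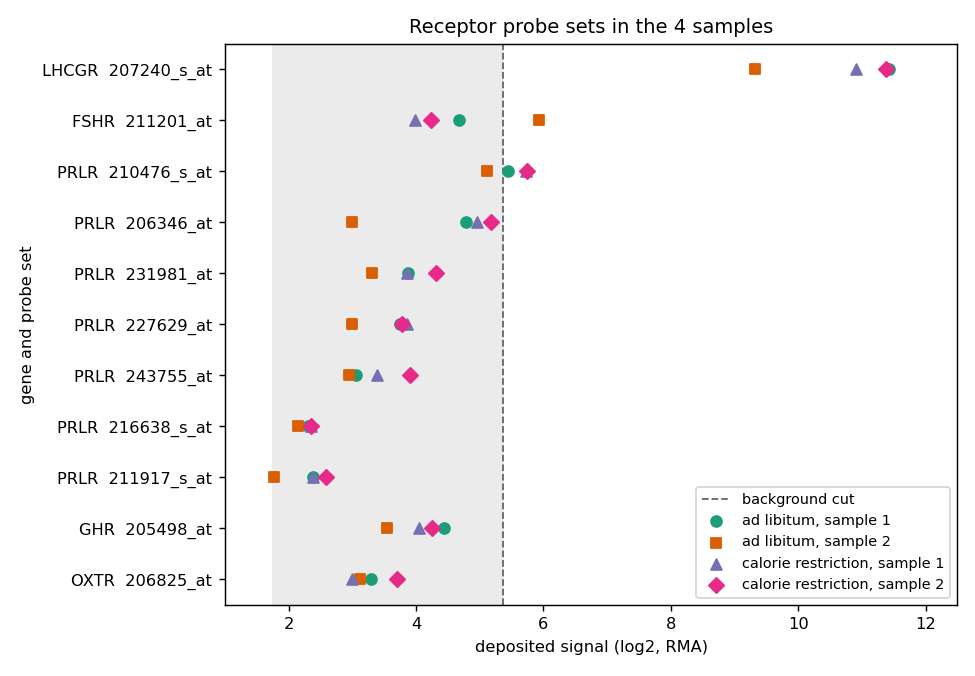
Deposited log2 signal (x axis) of the 11 receptor probe sets (y axis) in the 4 samples, 1 point per array. The dashed line is the background cut at 5.37 and the shaded area reaches from the lowest signal of the background genes to that cut; LHCGR lies right of it in all 4 samples, and the ad libitum sample 2 is the lowest point in 9 of the 11 rows.

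LHCGR carries the luteinising hormone signal that sustains the corpus luteum. Its log2 signal was 11.42 in sample 1 and 9.32 in sample 2 of the ad libitum animal. Under calorie restriction it was 10.90 in sample 1 and 11.37 in sample 2. The ad libitum sample 2 was therefore the low one, and the other 3 lay within 0.52 of each other. In the ad libitum animal LHCGR was 4.29-fold lower in sample 2 (log2 change -2.10), whereas in the calorie restriction animal sample 2 was 1.39-fold higher (0.47), short of 2-fold. Against the calorie restriction samples, the ad libitum sample 2 was lower by 1.58 and 2.05, so that the low value does not rest on the comparison with its own sample 1. The change in the ad libitum animal was -2.01 after cyclic loess and -1.98 after centring. Centring, here and below, used each array's median over the probe sets whose mean exceeded the background cut, not over all probe sets. The 1 LHCGR probe set left no second measurement of the gene on the array.

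Markers of luteal steroidogenic cells moved with LHCGR. Without LHCGR, 9 of 10 were 2-fold lower in the ad libitum sample 2. In the calorie restriction sample 2, 5 of 10 were 2-fold higher, as were 0.349% of all genes. The summed linear signal of these 10 genes was 29273 in the ad libitum sample 1 and 3706 in its sample 2, against 11092 and 18447 under calorie restriction. Of 13 endothelial markers, 6 were 2-fold lower and none higher in the ad libitum sample 2, where 3.83% of all genes were lower. In the calorie restriction sample 2, where LHCGR was higher, 11 of the 13 were lower by any size (median -0.23), as were 9762 of all 19775 genes. Of the 13, 1 was 2-fold lower there, as were 0.45% of all genes. Their summed signals were 3016 and 1420 in the ad libitum animal and 4675 and 3528 in the calorie restriction animal. LHCGR was counted as a marker of theca and interstitial cells too, and the 6 others measured, except STAR, moved opposite to it in both animals. In the ad libitum sample 2, 4 of the 6 were 2-fold higher, as were 1.96% of all genes, and STAR was lower. In the calorie restriction sample 2, 2 of the 6 were 2-fold lower and STAR was higher (1.03). In tissue RNA, fewer cells of a type and less RNA per cell cannot be told apart. The bacterial control RNAs added at hybridisation had a mean log2 signal of 10.58 and 9.85 in the ad libitum samples and 10.09 and 10.54 in the calorie restriction samples, the same order of the 4 arrays as that of LHCGR. Their part in the result was not tested, nor was that of the luteal, theca or endothelial markers. The 3' minus 5' difference in log2 signal, which reflects RNA length, lay between 1.15 and 1.41 for GAPDH and between 1.48 and 1.73 for actin on these arrays.

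FSHR went the other way in the ad libitum animal. Its log2 signal was 4.68 in sample 1 and 5.93 in sample 2, against 3.99 and 4.24 in the calorie restriction animal. Both ad libitum values exceeded both calorie restriction values, and the ad libitum sample 2 was the high one. In the ad libitum animal FSHR was 2.38-fold higher in sample 2 (1.25), and in the calorie restriction animal 1.19-fold higher (0.25). Of the 4 values, 3 were under the background cut, so the size of these changes is unsure and a fold from a near-background level can be too small. The change in the ad libitum animal was 1.21 after cyclic loess and 1.37 after centring.

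Markers of the follicle differed among themselves in the same comparison. Of all genes, 3.83% were 2-fold lower and 1.96% higher in the ad libitum sample 2. In the calorie restriction sample 2, 0.45% were lower and 0.349% higher. Of 9 measured granulosa markers other than FSHR, 2 were 2-fold higher in the ad libitum sample 2, the activin-binding protein FST (2.29) and the inhibin subunit INHBB (1.21), and 5 were 2-fold lower, led by CYP19A1 (-5.96), INHA (-5.32) and INHBA (-3.42). CYP19A1 and INHA are luteal markers as well, and CYP19A1 changed by -3.65 in its other probe set above the cut. The granulosa transcription factor FOXL2 changed by -0.32 there. The summed linear signal of these granulosa genes was 14877 and 3720 in the ad libitum samples and 12069 and 13843 in the calorie restriction samples. Of 9 measured oocyte markers, 4 were 2-fold higher in the ad libitum sample 2, ZAR1 (3.70), ZP4 (3.64), FIGLA (1.85) and OOEP (1.26). Of the 9, 5 were near background in all samples, FIGLA among them, so the size of its change is unsure. The summed linear signal of the 9 was 265 and 952 in the ad libitum samples, and 268 and 243 in the calorie restriction samples. Of 6 measured theca and interstitial markers, 4 were 2-fold higher in the ad libitum sample 2 and 1, STAR, was lower. In the calorie restriction sample 2 the direction was the opposite, with CYP17A1 (-3.26) and INSL3 (-2.0), enzyme and hormone of theca cells, at 2-fold lower or more and STAR higher (1.03). The summed signals were 9027 and 9055 in the ad libitum animal and 4092 and 3990 in the other. These sums include STAR, a luteal marker as well, which changed by -3.49 in the ad libitum animal. Every other marker of the list moved opposite to STAR in each animal. The near-equal sums therefore do not show an unchanged signal of theca cells. The part of these cell types in the FSHR value was not tested.

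PRLR was measured by 7 probe sets, which share the gene and the arrays and are not independent. The brightest, 210476_s_at, had log2 signals of 5.45 and 5.12 in the ad libitum animal and 5.73 and 5.74 under calorie restriction. It changed by -0.33 and 0.01, both far from 2-fold. The probe set 206346_at had signals of 4.79 and 3.0 in the ad libitum animal and 4.96 and 5.18 in the calorie restriction animal. It was thus 3.45-fold lower in the ad libitum sample 2 (-1.79) and 1.17-fold higher in the calorie restriction sample 2 (0.23). All 4 of these signals were under the background cut, so that the size of both changes is unsure. The low ad libitum sample 2 of 206346_at lay 1.96 and 2.18 under the calorie restriction samples.

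The remaining 5 PRLR probe sets had signals between 1.76 and 4.32, all near background, and changed by -0.75 to -0.10 in the ad libitum animal and by -0.07 to 0.52 in the calorie restriction animal. The direction was more alike than the size. All 7 PRLR probe sets were lower in the ad libitum sample 2, with a median change of -0.56, and 6 of 7 were higher in the calorie restriction sample 2, with a median of 0.21. After centring, 243755_at came to 0.01 in the ad libitum animal, which left 6 of 7 lower, and the calorie restriction change of 216638_s_at was 0.008 as deposited and -0.008 after cyclic loess. Among 303 genes with 7 or more probe sets, PRLR included, 1.98% had every probe set lower in the ad libitum sample 2 as deposited. For genes with more than 7 probe sets this is a stricter condition than for PRLR. The size of the PRLR change in the ad libitum animal ranged over its probe sets from -1.79 to -0.10, so that 1 fold change for the gene cannot be given. The mean of all 7 gave -0.62 and 0.19 in the 2 animals.

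GHR, through which growth hormone induces IGF1, had log2 signals of 4.43 and 3.55 in the ad libitum animal and 4.04 and 4.25 in the calorie restriction animal. The ad libitum sample 2 was the lowest (-0.88, or 1.85-fold lower), and the calorie restriction change was 0.21. OXTR, the receptor of the uterotonic and luteal peptide oxytocin, had signals of 3.29 and 3.13 in the ad libitum animal and 2.99 and 3.71 in the calorie restriction animal. The calorie restriction sample 2 was the high one (0.72, or 1.64-fold), and the ad libitum change was -0.16. Both genes lay under the cut in all samples and under 2-fold in both animals, so neither a level nor a change of GHR or OXTR was detectable above background on these arrays.

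In all, 2 of the 11 receptor probe sets were 2-fold lower in the ad libitum sample 2, those of LHCGR and PRLR (206346_at), and 1 was higher, that of FSHR. The background was 3.23% of all probe sets lower and 1.42% higher. Among probe sets above the cut in at least 1 sample, as those of LHCGR and FSHR were, it was 7.49% lower and 2.92% higher. Among probe sets near background in every sample, as 206346_at was, it was 0.599% lower. No receptor probe set was 2-fold apart in the calorie restriction animal, where 0.353% of all probe sets were lower and 0.217% higher. The ad libitum sample 2 was the lowest of the 4 samples for 9 of the 11, as it was for 30.9% of all probe sets. With any size counted, 10 of 11 were lower in the ad libitum sample 2, where 48.0% of all probe sets were lower, and 9 of 11 after centring. Of the 11, 9 were lower in the ad libitum sample 2 and higher in the calorie restriction sample 2, a pair of signs that 24.6% of all probe sets had, although 7 of the 9 were near background in every sample and 6 of the 11 measured 1 gene, PRLR, with that pair.

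Centring moved the balance of calls. Of probe sets 2-fold apart in the ad libitum animal, 69.5% were lower in sample 2 as deposited and 54.9% after centring, and in the calorie restriction animal the shares were 62.0% and 49.3%. The median change of probe sets above the cut moved from -0.032 to 0.086 in the ad libitum animal and from -0.035 to 0.036 in the calorie restriction animal. The 3 receptor probe sets 2-fold apart in the ad libitum animal stayed so in both normalisations.

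**Figure D2:**
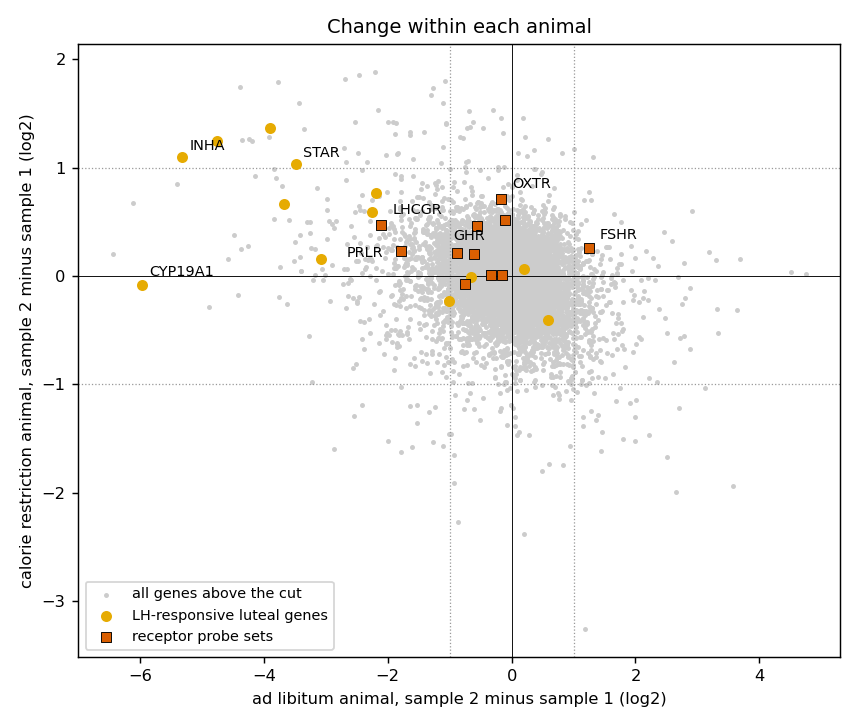
Change in log2 signal, sample 2 minus sample 1, in the ad libitum animal (x axis) and the calorie restriction animal (y axis), for the 11 receptor probe sets (squares), the LH-responsive luteal genes (yellow) and all genes above the cut (grey). Dotted lines mark 2-fold; LHCGR lies at -2.10 and 0.47 and FSHR at 1.25 and 0.25, and 1 of the unlabelled PRLR squares lies below 0 on the y axis.

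The difference between the animals was tested over their 2 samples each with limma across all 41091 probe sets. None passed a Benjamini-Hochberg adjusted p of 0.05 (0.0%), and 2203 passed an unadjusted 0.05, 2 of them receptor probe sets. Both diets were single animals, so the test measures the spread between samples of these 2 monkeys. Given as calorie restriction minus ad libitum, the difference was -1.19 ± 0.40 (SE) for FSHR, with an adjusted limma p of 0.91. LHCGR differed by 0.77 ± 0.67 (SE), with an adjusted limma p of 0.93. PRLR 206346_at differed by 1.18 ± 0.55 and 210476_s_at by 0.45 ± 0.20, with an adjusted limma p of 0.91 for each. GHR (0.15 ± 0.30) and OXTR (0.14 ± 0.25) had adjusted limma p of 0.97. The calorie restriction mean was higher for all 7 PRLR probe sets, and for 5 of them both of its samples exceeded both ad libitum samples, as for 18.5% of all probe sets. FSHR was the receptor for which both calorie restriction samples were lower, as for 16.3%.

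The values for LHCGR, FSHR, GHR and PRLR 206346_at depended most on the ad libitum samples. Without the ad libitum sample 1, the limma fit compared sample 2 alone with the calorie restriction animal, with 1 residual degree of freedom and the lone sample assumed to vary like the others, and it called 595 probe sets (1.45%). FSHR then differed by -1.82 (adjusted p = 0.028) and PRLR 206346_at by 2.07 (adjusted p = 0.019), both called, while LHCGR differed by 1.82 and narrowly missed (adjusted p = 0.052). Without the ad libitum sample 2, limma called 0 probe sets, with 2893 at an unadjusted p of 0.05. LHCGR then turned to -0.28 (adjusted p = 0.84), GHR to -0.29 (adjusted p = 0.79), FSHR came to -0.57 (adjusted p = 0.69) and PRLR 206346_at to 0.28 (adjusted p = 0.79). OXTR depended on the calorie restriction samples instead, with 0.49 without sample 1 and -0.22 without sample 2. Over the 4 fits that left out a sample, the lowest adjusted p was 0.22 for GHR and 0.79 for OXTR.

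Weight gain and weight loss are both named in the study's title, so an opposed change was fitted too. It was the calorie restriction change minus the ad libitum change, with the animal as a block and no common change of sample number. With 1 residual degree of freedom, the residual of each probe set was its common change, so SE and p-value measure no spread between replicates. As deposited, limma called 0 probe sets, with 2242 at an unadjusted p of 0.05, 5 of them receptor probe sets. The opposed change was 2.57 ± 0.79 (SE) for LHCGR, with an adjusted limma p of 0.89. It was 2.02 ± 0.71 for PRLR 206346_at, with an adjusted limma p of 0.91, and 1.10 ± 0.44 for GHR, with the same adjusted p of 0.91. FSHR had an adjusted limma p of 0.93. After the centring described for LHCGR, the same limma fit called 535 probe sets (1.3%), among them LHCGR (2.53, adjusted p = 0.0075) and PRLR 206346_at (1.97, adjusted p = 0.045). With cyclic loess it called 0, so that the call rests on the centring. For a common change of sample number, limma called 0 probe sets (0.0%), with 1447 at an unadjusted p of 0.05, 1 of them a receptor probe set.

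The genes downstream of LHCGR were described next, by each gene's brightest probe set. Across all 19775 genes, 3.83% were 2-fold lower and 1.96% higher in the ad libitum sample 2, with a median change of 0.017. Of 13 measured luteal genes that respond to luteinising hormone, 10 were at least 2-fold lower there and none was higher (median -3.07). Of these 13, 9 are also among the luteal markers above. The largest were in aromatase, CYP19A1, in INHA and in MRAP (-4.75), and the cholesterol carrier STAR (-3.49), CYP11A1 (-2.19) and HSD3B2 (-3.91) changed likewise. In the calorie restriction sample 2, 4 of the 13 were higher, HSD3B2 (1.36), MRAP (1.25), INHA (1.10) and STAR (1.03), and none lower (median 0.59). In that animal 0.45% of all genes were lower and 0.349% higher, with a median of 0.003. CYP19A1, high in 3 samples and at 4.41 in the ad libitum sample 2, changed by -0.08 under calorie restriction. Its other probe set above the cut changed by -0.85 there.

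Signalling genes between the receptor and those targets moved less. Of 28 measured genes of Gs and cyclic AMP signalling, 2 were 2-fold lower in the ad libitum sample 2 and none higher (median 0.011). These were PRKAR1A, a regulatory subunit of protein kinase A, at 12.40 and 10.36 (-2.04, and -2.04 to -1.43 over its 3 probe sets above the cut), and the phosphodiesterase PDE4B (-1.29). PDE4D followed at -0.66. GNAS, the stimulatory G protein subunit, changed by -0.02, although 6 of its 8 probe sets above the cut had the opposite sign, up to 1.44. In the calorie restriction animal none of the 28 was 2-fold apart. By any size 22 were lower (median -0.21), as were 9762 of all 19775 genes, with ADCY9 (-0.71), PDE4B (-0.70) and PDE7B (-0.60) first.

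Of 9 measured genes that switch off receptors or bind LHCGR mRNA, the receptor kinase GRK5 was 2-fold lower in the ad libitum sample 2 (-1.19, and -1.19 to -0.49 over its 4 probe sets) and none was higher (median -0.33). GRK5 had log2 signals of 9.92 and 8.74 in the ad libitum animal and 9.60 and 10.05 in the calorie restriction animal, and so was low in the same sample as LHCGR. The G protein regulators RGS2 (-0.98) and RGS4 (-0.58) followed. MVK, mevalonate kinase, which is known to bind LHCGR mRNA, changed by 0.12 in the ad libitum animal and by 0.28 under calorie restriction. None of the 9 was 2-fold apart in the calorie restriction animal (median 0.10), where GRK5 changed by 0.46 and RGS4 by 0.24.

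Among 21 measured genes of JAK and STAT signalling, which PRLR and GHR share, 1 was 2-fold lower in the ad libitum sample 2 and none higher (median -0.17). It was the feedback inhibitor SOCS3, with log2 signals of 6.86 and 4.73 in the ad libitum animal and 7.25 and 6.63 in the calorie restriction animal. Its change of -2.13 in the ad libitum animal was -0.68 by its other probe set above the cut. PTPN1 (-0.80) and CISH (-0.75), a phosphatase and an inhibitor of this pathway, followed. JAK2 (-0.19), STAT5A (-0.01) and STAT5B (0.18) were far from 2-fold, and 3 of 5 STAT5B probe sets had the opposite sign, down to -0.90. In the calorie restriction animal none of the 21 was 2-fold apart (median -0.20), and IRS2 (-0.63), SOCS3 (-0.62) and SOS1 (-0.43) were first.

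Of 5 measured genes that growth hormone induces, none was 2-fold apart in the ad libitum animal, where IGF1 changed by 0.76, CISH by -0.75 and SOCS2 by -0.57. In the calorie restriction animal 1 was 2-fold lower, IGFBP3, with signals of 10.16 and 9.11 (-1.05), and SOCS2 (-0.27) and CISH (-0.22) followed. For CISH, 2 of its 3 probe sets above the cut had the opposite sign there, up to 0.08. IGF1 was at 8.61 and 9.37 in the ad libitum samples and at 8.45 and 8.35 in the calorie restriction samples, with the ad libitum sample 2 the highest. In the calorie restriction animal 3 of the 4 IGF1 probe sets above the cut had the opposite sign, up to 0.37. Of 18 measured genes of Gq and calcium signalling, the pathway of OXTR, 2 were 2-fold lower in the ad libitum sample 2, the inositol trisphosphate receptor ITPR3 (-1.12) and the phospholipase PLCB1 (-1.07), and 1 higher, the myosin kinase MYLK (1.20, and 0.44 in its other probe set above the cut). Their median was 0.037, and none was 2-fold apart in the calorie restriction animal (median -0.086).

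**Figure D3:**
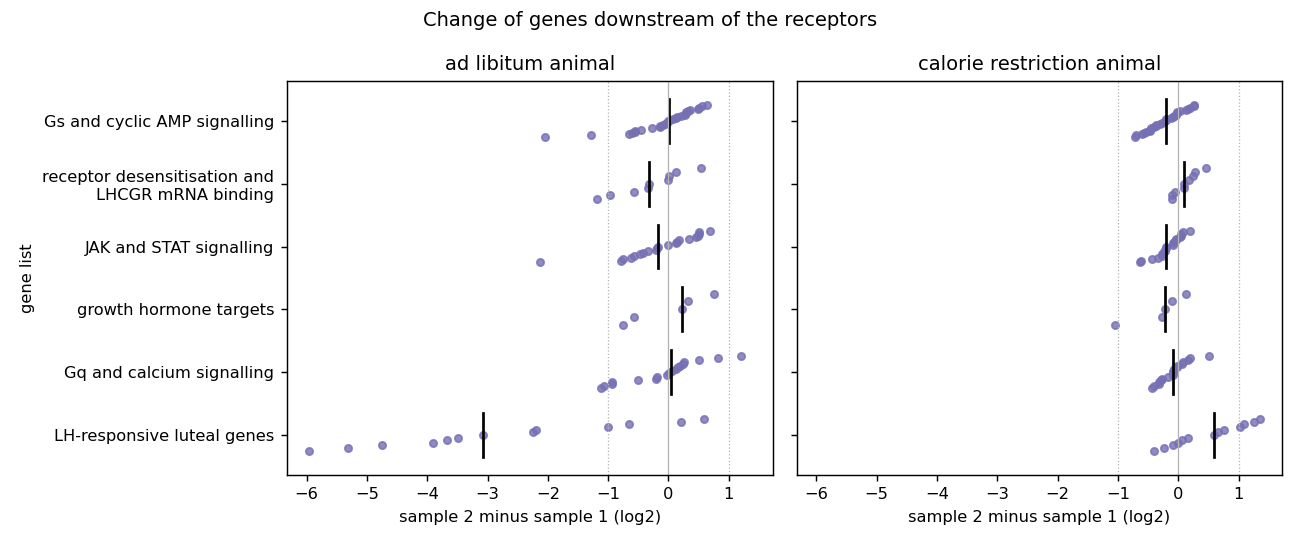
Change in log2 signal, sample 2 minus sample 1 (x axis), of every measured gene (points) in 6 gene lists (y axis), with each list's median as a black bar, for both animals on the same scale. The LH-responsive luteal genes have medians of -3.07 and 0.59, and the medians of the other 5 lists lie between -0.33 and 0.23.

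The hormone genes that were measured gave no signal above the cut. Of 11 listed, 7 had a probe set with 1 gene symbol. The beta subunits of luteinising hormone and chorionic gonadotropin had none, so the subunits specific to the LHCGR ligands were not measured. All 7 ligand genes measured, among them FSHB, the shared gonadotropin subunit CGA, PRL, GH1 and OXT, were near background in all 4 samples, and none was 2-fold apart in either animal. PRL had signals of 3.18 and 3.49 in the ad libitum animal and 2.87 and 3.39 in the calorie restriction animal. Of 11 measured relatives of the receptors, 8 were near background in every sample, among them TSHR, LEPR and the vasopressin receptor AVPR1A. The other 3 were LGR4 (0.67 and -0.52 in the 2 animals), EPOR (-0.47 and -0.03) and AVPR1B (-0.09 and 0.08), none of them 2-fold apart. LGR4 had a second probe set above the cut with the opposite sign in both the ad libitum (-0.10) and the calorie restriction animal (0.33). So had EPOR (0.11 and 0.29).

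The genes whose pattern was most like that of a receptor were found by the Euclidean distance between log2 values centred on each gene's mean, over 4 samples and 10201 genes. Nearest to LHCGR were MARCHF3 (distance 0.10), the retinol and steroid dehydrogenase DHRS9 (0.13), the fatty acid elongase ELOVL6 (0.17), the thioredoxin reductase TXNRD1 (0.18) and the lactonase PON2 (0.19). They changed by -2.15 to -1.91 in the ad libitum animal and by 0.26 to 0.49 in the calorie restriction animal. The other MARCHF3 probe set above the cut changed by 0.16 in the ad libitum animal, so its likeness rests on 1 probe set.

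Nearest to FSHR were FNDC5 (0.16), the matrix protein ABI3BP (0.17), the smooth muscle myosin MYH11 (0.19), the retinal dehydrogenase ALDH1A1 (0.20) and MYLK (0.21), with changes of 1.01 to 1.46 and 0.18 to 0.52 in the 2 animals. The other FNDC5 probe set above the cut changed by 0.15 in the ad libitum animal, so its likeness too rests on 1 probe set. Of 12 smooth muscle and pericyte markers, MYH11 was the 1 that was 2-fold higher in the ad libitum sample 2, and 2 were lower, with a summed linear signal of 10858 and 13081 in that animal and 7258 and 10258 in the other; their part was not tested. Nearest to the brightest PRLR probe set were KIF26A, the ephrin EFNB1, UBE2G2, HS2ST1 and the creatine transporter SLC6A8, each at a distance of 0.03. They changed by -0.36 to -0.29 and by -0.03 to 0.04. The other KIF26A probe set above the cut changed by -0.41 in the calorie restriction animal, so its likeness rests on 1 probe set. Over the 3 probe sets of SLC6A8 the changes in the ad libitum animal ranged from -0.66 to -0.30. With 4 samples from 2 animals, such likeness is a description of these arrays.

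**Figure D4:**
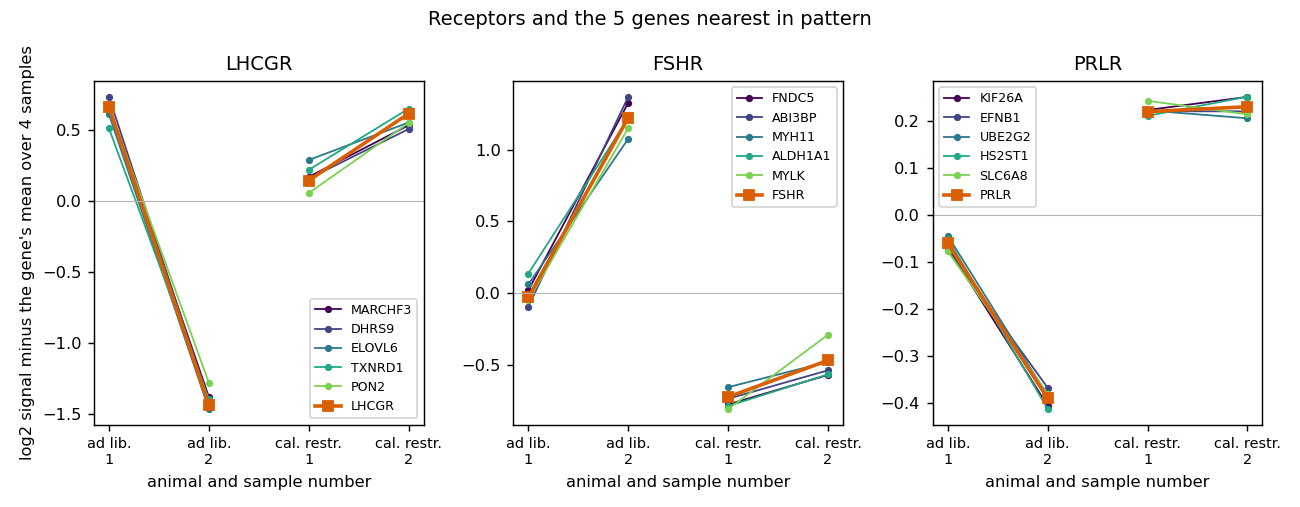
Log2 signal minus the gene's mean over the 4 samples (y axis) by animal and sample number (x axis) for LHCGR, FSHR and the brightest PRLR probe set (thick orange) and the 5 genes nearest to each (thin), with lines joining the samples of an animal. LHCGR and its neighbours are low in the ad libitum sample 2, and FSHR and its neighbours are high there; the y axes differ between panels.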

How the data were processed

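Total RNA of frozen corpus luteum was amplified into biotinylated RNA and hybridised to an array, per the labels' protocols. The deposited log2 values, 1 per probe set, came from RMA in Affymetrix Power Tools per the submitters' processing notes, with versions and settings not given in the sources used here. Probes were designed on human genes, per the platform annotation, and a mismatch with the vervet sequence can lower a signal. Control probe sets (62) and those with several (1801) or no (11721) gene symbols were left out. Tests used limma 3.58.1 in R 4.3.3 (lmFit, eBayes with a trend, Benjamini-Hochberg adjustment over all probe sets), and the procedure was tested on simulated data. The samples of an animal are not said to be replicates, so p-values measure only the spread between these samples, and the number of arrays limits the precision.

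The receptors, gene lists, background genes and tests were chosen with earlier results of these data known. From each pathway list, the 3 genes with the largest change in each animal among those above background were named, with a fixed set of pathway genes and the 5 genes nearest to a receptor above background. Marker genes, PRL and the near-background relatives were named after their values were seen. Alternatives were cyclic loess, centring, the mean of a gene's probe sets, other thresholds, no trend, a sample-number block and leaving out each sample.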

Additional observations from a re-analysis of the deposited data

Results flagged for a closer look

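LHCGR had opposite changes in the 2 animals, -2.10 under ad libitum feeding and 0.47 under calorie restriction, and so had PRLR 206346_at, with -1.79 and 0.23. The latter probe set was near background in every sample, and the brightest one for PRLR, 210476_s_at, changed by -0.33 and 0.01. Each change is 1 pair of arrays. The opposed fit described above did not call either as deposited and called both after centring, and the order of collection of the samples is not labelled.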

How the results depend on the processing

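At 1.5-fold in place of 2-fold, 6 receptor probe sets were apart in the ad libitum animal and 1 under calorie restriction, against 3 and 0. Of these, 4 and 1 were near background in all samples, and 13.8% and 3.63% of all probe sets were 1.5-fold apart. Leaving out single samples gave 0 to 595 calls for the difference between animals, and differences of -0.28 to 1.82 for LHCGR, -0.29 to 0.60 for GHR and -0.22 to 0.49 for OXTR. With the sample number as a replicate block limma called 2 probe sets, neither of them a receptor. The deviations of same-numbered samples from their animal's mean had a weak negative correlation (Pearson r = -0.25 across 14173 probe sets). This cannot decide whether the numbers pair the samples, since opposed changes in the 2 animals would also give a negative value. A crossed replicate block, added after seeing the data, called 0. Centring gave 535 calls for the opposed change, where limma's estimated prior degrees of freedom were 58.6 against 5.57 as deposited; the cause was not tested. The other alternatives left every count of calls at 0, and 200 values of single receptor probe sets kept their direction and side of the threshold, against 3 that moved, 3 that reversed and 4 that came past it.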
